A study of Mus musculus with 24 samples.

Results

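The endoplasmic reticulum (ER) chaperones and targets of the unfolded protein response analysed here are 10 genes, Hspa5, Hsp90b1, Pdia4, Dnajb9, Sdf2l1, Xbp1, Creld2, Hyou1, Manf and Calr, among 53801 genes in the expression table. They were chosen by name as well-known members of this pathway, and all 10 were expressed in every library. The cells were pancreatic stellate cells (PSC), the fibroblast-like cells of the pancreas, from wild-type C57BL/6J mice, co-cultured without contact with KPC cells, a murine pancreatic cancer line. In standard co-culture, the distant form, KPC cells grew on the bottom of the well below the porous insert that carried the PSC. In inverse co-culture, the close form, KPC cells grew on the underside of the same membrane. Each of the 2 models was sampled at 24 h and 72 h, with PSC grown alone as the control of each co-culture, which gave 8 groups of 3 poly(A) RNA libraries and 24 libraries in all. Within each model control and co-cultured PSC shared genotype and medium. PSC of several pancreata were pooled at isolation, and all KPC cells came from 1 line. PSC of the inverse model were seeded onto inserts that already carried KPC cells and shared them for a day before the time count began, whereas PSC of the standard model met KPC cells when it began. PSC of the standard model were seeded in another medium, which was changed to the co-culture medium when the time count began. PSC of the inverse model were seeded in the co-culture medium and had no such change. RNA input was 450 ng in the standard and 120 ng in the inverse model. Model, length of exposure, medium at seeding and RNA input therefore cannot be told apart.

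Proteins that enter the secretory pathway fold in the ER with the help of chaperones, lectins and disulfide isomerases, and cells that secrete much collagen, such as activated PSC, keep this machinery at a high level. When unfolded proteins accumulate, the sensors IRE1, PERK and ATF6 are released from the chaperone BiP. IRE1 splices the mRNA of Xbp1 into the form that encodes an active transcription factor, ATF6 is cut to release another, and PERK slows translation while favouring Atf4 and its targets. The spliced factor XBP1 and ATF6 together induce chaperones through a DNA motif called the ER stress response element (ERSE). Values per gene do not separate spliced from unspliced Xbp1 mRNA, so the splicing step itself was not measured here.

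Promoter letters of the 10 genes, which were chosen by name, are shown first. RefSeq promoter windows of the mouse build GRCm38.p6 were found for 8 of the 10 genes, Hyou1 and Manf being the others, and the 250 bases before each start were searched on both strands. The ERSE, spelled CCAAT, any 9 bases and CCACG, was found in Hspa5, Hsp90b1, Creld2 and Calr, 4 of 8 windows, against 0.113% of 32851 mouse promoter windows. As the genes were chosen as well-known members of this pathway, such shares describe them and are no test of enrichment. Each match is printed with 5 bases on either side, read in the direction from CCAAT to CCACG, with these letters in capitals.
Hspa5, chr2:34772020-34772048, plus strand: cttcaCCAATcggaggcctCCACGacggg
Hsp90b1, first element, chr10:86705633-86705661, minus strand: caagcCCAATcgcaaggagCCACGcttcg
Hsp90b1, second element, chr10:86705528-86705556, plus strand: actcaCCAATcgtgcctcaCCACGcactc
Creld2, chr15:88819515-88819543, minus strand: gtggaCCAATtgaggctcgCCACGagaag
Calr, chr8:84847070-84847098, plus strand: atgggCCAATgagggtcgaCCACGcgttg

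Distances are from the RefSeq start, whereas gene positions given with the values use the GENCODE gene start. For Hspa5 and Hsp90b1 the RefSeq start lies 120 and 65 bases downstream of it, so that the Hspa5 element falls inside the GENCODE gene. For Dnajb9 it lies 258 bases downstream, so its whole window is inside the GENCODE gene and no bases before the GENCODE start were searched. The element of Hspa5 lay closest to the RefSeq start, 65 to 47 bases before it, and ran with the gene. Those of Hsp90b1 lay 212 to 194 and 107 to 89 bases before the start, the first with and the second against the gene. In Creld2 and Calr the element ran against the gene, 126 to 108 and 162 to 144 bases before the start. The 5 letters CCACG alone, which every ERSE contains, were in 6 of 8 windows, against 28.3% of all windows. The UPR element TGACGTG was in Hspa5 only among the 8 (1.65% of all windows), 157 to 151 bases before the start. A second ERSE form, ATTGG, any base and CCACG (0.0304% of all windows), and the ATF4 site TGATGCAA (0.791%) were in none of the 8. The window of Xbp1, the gene with the largest differences below, held none of these motifs in chr11:5520391-5520640 on the plus strand. The window of Hspa5, the 1 member with both an ERSE and a UPR element, is printed whole (chr2:34771840-34772089, plus strand), with both motifs in capitals.
Hspa5: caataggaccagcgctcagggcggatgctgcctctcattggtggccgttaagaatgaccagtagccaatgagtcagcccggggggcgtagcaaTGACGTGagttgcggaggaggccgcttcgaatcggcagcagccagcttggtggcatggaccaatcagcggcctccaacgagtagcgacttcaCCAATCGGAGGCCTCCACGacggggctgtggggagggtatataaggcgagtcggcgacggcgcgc

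A match or its absence describes these letters and says nothing on binding in PSC.

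Levels are given as FPKM, fragments scaled to transcript length and to the counted fragments of the library, which allow genes to be compared per length. In FPKM, Calr was highest with a mean of 755 over the 24 libraries, followed by Hspa5 (669), Hsp90b1 (418), Xbp1 (215), Pdia4 (177), Manf (155), Hyou1 (75.6), Dnajb9 (31.3), Creld2 (27.7) and Sdf2l1 (22.5). Neighbours in this order were not always apart, as Calr exceeded Hspa5 in 18 of 24 libraries, Xbp1 exceeded Pdia4 in 17 and Dnajb9 exceeded Creld2 in 15. Pdia4 was above Manf in 22 libraries and Creld2 above Sdf2l1 in 21, and the other neighbours kept their order in all 24. The 7 highest of the 10 genes were at the 88.4th percentile or higher among genes with a mean FPKM over 1, and Sdf2l1, the lowest, was at the 62.9th percentile. The range over libraries was widest for Calr, 315 to 1029.8 FPKM (3.27-fold), and narrowest for Hspa5, 486 to 856 FPKM (1.76-fold). At least 12886 fragments per library stood behind Hspa5 and about 230 or more behind Sdf2l1, whose length in the annotation did not match the FPKM exactly. As these are bulk samples, fewer cells of a type and less RNA per cell cannot be told apart.

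**Figure D1:**
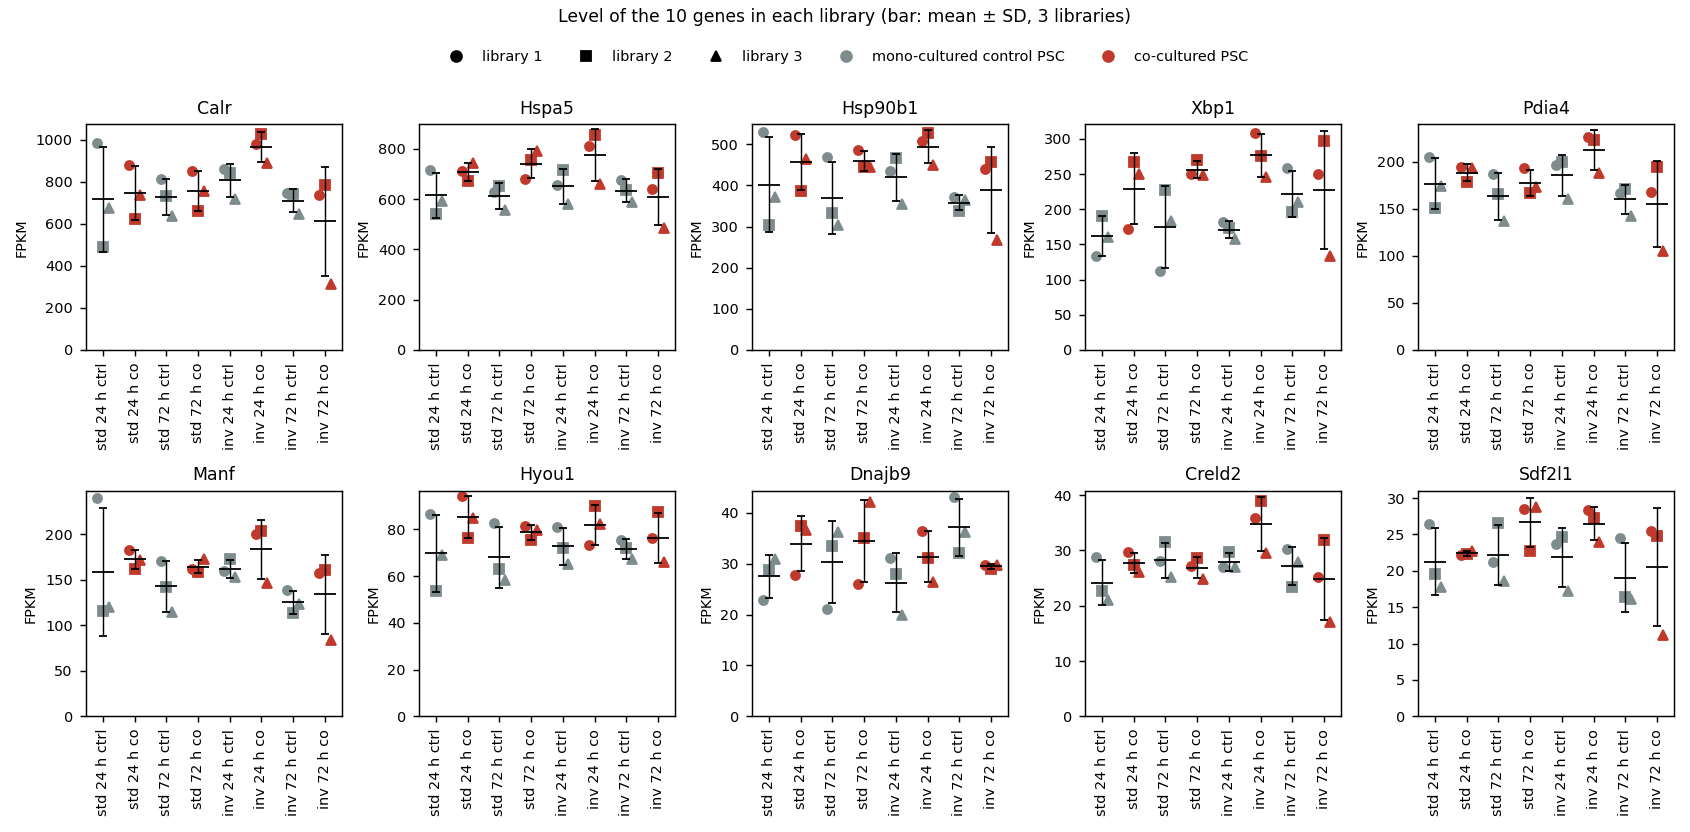
FPKM (vertical axes, from 0) of the 10 genes in each of the 24 libraries, with controls in grey, co-cultures in red, marker shapes for the library number and bars for the mean ± SD of 3 libraries. Co-culture values of Xbp1 lie above those of the control with the same number everywhere but in the inverse model at 72 h, where co-culture library 3 is below the other 5 libraries for 9 of the 10 genes.

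The libraries held 15932737 to 24798761 counted fragments, recovered from the FPKM values. Stellate cell and fibroblast markers were abundant, 11 of 12 passing 1 FPKM in every group with a summed level of 21965 to 39496 FPKM, whereas Gfap, a classical stellate cell marker, stayed at or below 0.237 FPKM. Epithelial markers of KPC cells summed to 4.16 to 11.7 FPKM in 23 libraries and to 49.6 FPKM in inverse co-culture library 2 at 24 h, where Krt8 was at 15.2 and Krt18 at 11.7 FPKM while Epcam was at 0.107 FPKM. Among 12 acinar and 7 endothelial markers only Cela1 and Tek passed 1 FPKM, and in the B and plasma cell list 6 of 8 genes, Jchain, Mzb1 and Cd79a among them, stayed below 0.5 FPKM. The other 2 were Ighm, with group means of 0.428 to 12.5 FPKM, and Sdc1, at 123 to 377 FPKM in single libraries, whose group means were higher in co-culture in all 4 comparisons without passing the test. Macrophage markers summed to 418 to 1424 FPKM in the 4 standard libraries numbered 2 and to 26.3 to 261 FPKM in the other 20. Their part in the results was not tested.

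Co-cultures were set against the controls of their model and time, 6 libraries at a time, by limma on log2(FPKM + 0.5) with adjustment over all genes tested, and an adjusted p below 0.05 defines a differentially expressed gene (DEG). In the inverse model at 24 h, 1 of the 10 genes, Xbp1, rose, and 2.47% of 12827 genes tested were DEG. In the inverse model at 72 h none of the 10 was a DEG, where 12.8% of 13066 genes were. In the standard model none of the 10 was a DEG at 24 h or 72 h, where 0% of 12859 and 0% of 12863 genes were (371 and 800 genes had an unadjusted p below 0.05). This fit left out that standard libraries of the same number varied together. With the number as a block, the 24 h comparison had 157 DEG, and Xbp1 was the 1 member among them. The 72 h comparison then had 1 DEG, which was not a member. Later values of the standard model are from the fit without the block unless stated. Log2 fold changes of the 10 genes had medians of 0.21 and 0.22 in the standard model at 24 h and 72 h and of 0.26 in the inverse model at 24 h, beside -0.01, -0.09 and -0.06 over all genes tested. They were above 0 for 10, 9 and 10 of the 10 genes, while 47.5%, 34.5% and 37.9% of all genes were. In the inverse model at 72 h the median was -0.05, with 4 of 10 above 0, beside -0.16 and 31.7% over all genes. Scaling by median gene ratios moved the median of all genes there from -0.16 to 0.00 and that of the 10 genes to 0.11 with 7 above 0, and it split the DEG into 752 higher and 675 lower in place of 427 and 1251. For the inverse model at 24 h the split was 179 higher and 144 lower in place of 139 and 178.

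**Figure D2:**
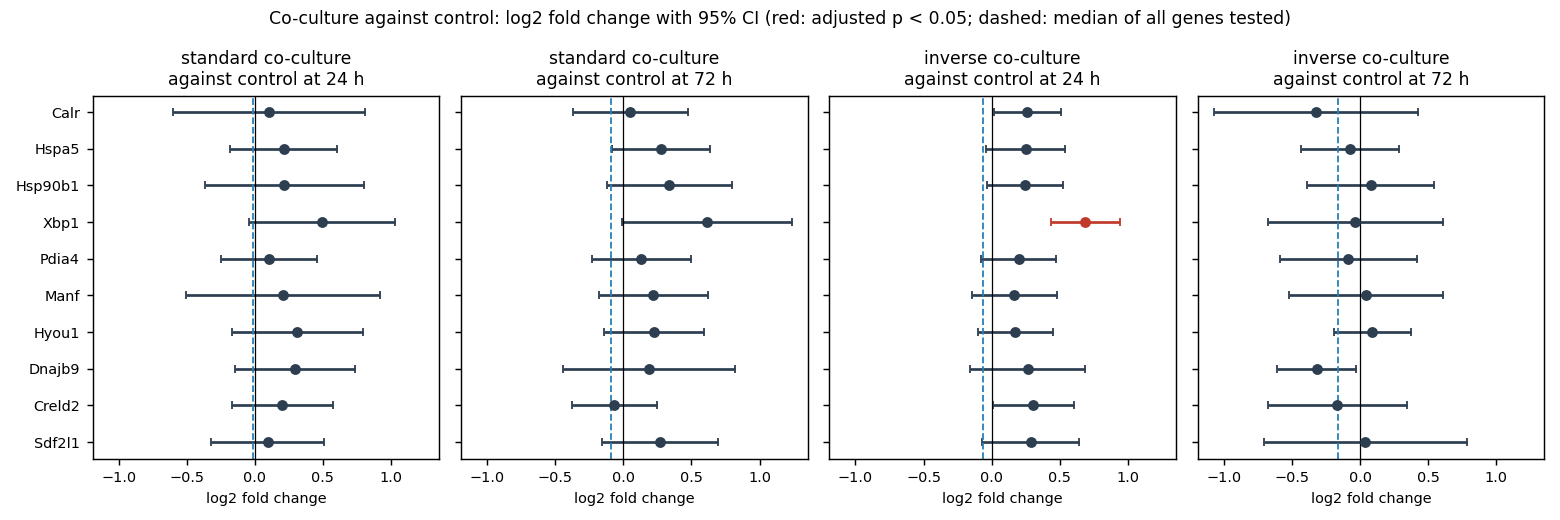
Log2 fold changes of co-culture over control (horizontal axis) for the 10 genes in the 4 comparisons, with 95% confidence intervals, red for an adjusted p below 0.05 and a dashed line at the median of all genes tested. Xbp1 at 0.69 in the inverse model at 24 h is the only red point, and the intervals in the inverse model at 72 h reach from -1.08 to 0.78.

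Xbp1 (ENSMUSG00000020484, chr11:5520659-5525893, plus strand) encodes the transcription factor of the IRE1 branch and had the highest log2 fold change of the 10 genes in both standard comparisons and in the inverse model at 24 h. In the order of libraries 1, 2 and 3, kept throughout, Xbp1 was at 133, 190.0 and 161 FPKM in standard controls at 24 h and at 172, 266 and 249 FPKM in co-culture. At 72 h it was at 112, 227 and 184 FPKM in standard controls and at 251, 269.6 and 248 FPKM in co-culture. Co-culture exceeded the control of the same number in all 3 pairs at both times, and at 72 h the groups did not overlap. The log2 fold change was 0.49 (SE 0.22, 95% CI -0.04 to 1.03, adjusted p = 1) at 24 h and 0.61 (SE 0.26, 95% CI -0.01 to 1.24, adjusted p = 0.78) at 72 h, so neither passed. Same-numbered standard libraries varied together, and with the number as a block Xbp1 passed at 24 h, with the same log2 fold change of 0.49 and an adjusted p of 0.044, among 157 DEG.

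In inverse controls at 24 h Xbp1 was at 182, 174 and 158 FPKM, and in co-culture at 308, 276 and 246 FPKM. Every co-culture library lay above every control, and the means were 277 ± 31.0 and 171 ± 12.2 FPKM (SD, n = 3). The log2 fold change of 0.69 (SE 0.11, 95% CI 0.43 to 0.94, adjusted p = 0.019) made Xbp1 rank 123 of 12827 genes by p. Without co-culture library 2, which held the keratin signal, it was 0.69 with an adjusted p of 0.081, and with all 24 libraries in 1 fit the adjusted p was 0.44, so the size held and the call did not. At 72 h Xbp1 was at 258, 196 and 210.1 FPKM in inverse controls and at 250.2, 296 and 134 FPKM in co-culture. Library 2 lay above and library 3 below all controls, for a log2 fold change of -0.03 (SE 0.28, 95% CI -0.68 to 0.61, adjusted p = 0.95), or 0.31 (adjusted p = 0.19) without co-culture library 3 and 0.13 with scaling by median gene ratios.

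Hspa5 (ENSMUSG00000026864, chr2:34771970-34777547, plus strand) encodes BiP, the main ER chaperone and the partner that holds the UPR sensors inactive. Standard controls had 715, 539 and 591 FPKM at 24 h and 629, 653 and 557 FPKM at 72 h. Standard co-cultures had 713, 672 and 743 FPKM at 24 h and 679, 756 and 790.0 FPKM at 72 h. At 72 h every co-culture library was above every control, as for Xbp1, and these were the 2 members whose groups did not overlap there, against 3.36% of genes tested that lay higher in this way. No member was so separated at 24 h, against 3.35%. The log2 fold changes of Hspa5 were 0.21 (SE 0.16, adjusted p = 1) and 0.28 (SE 0.15, 95% CI -0.08 to 0.63, adjusted p = 0.80), and neither passed. Within the inverse model, controls had 658, 716 and 579.6 FPKM at 24 h and 678, 638 and 588 FPKM at 72 h, and co-cultures 810.3, 856 and 661 and 640.1, 703 and 486 FPKM. The values overlapped at both times, with log2 fold changes of 0.25 (SE 0.13, 95% CI -0.04 to 0.54, adjusted p = 0.42) and -0.07 (SE 0.16, 95% CI -0.43 to 0.29, adjusted p = 0.78), the latter at 0.09 with scaling by median gene ratios.

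Dnajb9 (ENSMUSG00000014905, chr12:44205559-44210326, minus strand), a J-domain co-chaperone that brings BiP to IRE1 and to substrates, followed a course of its own. Its standard controls were at 22.9, 28.7 and 30.9 FPKM at 24 h and 21.1, 33.5 and 36.3 FPKM at 72 h, and co-cultures at 27.7, 37.3 and 36.7 and 26.0, 35.1 and 42.1 FPKM. Co-culture was higher in all 3 pairs at both times, at log2 fold changes of 0.30 (SE 0.18) and 0.19 (SE 0.26). These SEs are from the fit that left out the pairing by number, and Dnajb9 was not a DEG with the number as a block either. Inverse controls at 24 h were at 31.0, 28.0 and 19.8 FPKM and co-cultures at 36.5, 31.2 and 26.5 FPKM. Co-culture was higher on average but the groups overlapped, at 0.26 (SE 0.19, 95% CI -0.16 to 0.68, adjusted p = 0.58). At 72 h the order turned, with controls at 43.2, 32.1 and 36.2 FPKM and co-cultures at 29.7, 28.9 and 29.7 FPKM. All 3 co-culture libraries were below all controls, and their SD was 0.496 FPKM. Dnajb9 was the member with non-overlapping lower values there, where 28.8% of genes tested were lower in this way, and its log2 fold change of -0.32 (SE 0.13, 95% CI -0.61 to -0.03, adjusted p = 0.12) did not pass. It was at -0.33 without co-culture library 3, but at -0.21 without control library 1 and at -0.16 with scaling by median gene ratios.

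Sdf2l1 (ENSMUSG00000022769, chr16:17130138-17132383, minus strand) encodes an ER protein that works with BiP and its co-chaperones and was the lowest of the 10. It was at 26.5, 19.6 and 17.8 FPKM in standard controls and 22.2, 22.2 and 22.8 FPKM in co-culture at 24 h, and at 21.2, 26.6 and 18.6 and 28.5, 22.7 and 28.7 FPKM at 72 h. The inverse model gave 23.7, 24.7 and 17.2 FPKM in controls and 28.3, 27.3 and 23.9 FPKM in co-culture at 24 h, and 24.6, 16.5 and 16.2 and 25.5, 24.8 and 11.1 FPKM at 72 h. The groups overlapped in all 4 comparisons, and the interval was widest in the inverse model at 72 h, where the log2 fold change was 0.04 (SE 0.32, 95% CI -0.71 to 0.78, adjusted p = 0.95). Co-culture library 3, at 11.1 FPKM, stood beside 25.5 and 24.8 FPKM, and without it the value was 0.42 (adjusted p = 0.18).

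Hyou1 (ENSMUSG00000032115, chr9:44379490-44392369, plus strand), which helps BiP to exchange its nucleotide, was steadier. Standard controls had 86.5, 53.5 and 69.2 FPKM at 24 h and 82.6, 63.2 and 58.2 FPKM at 72 h, beside 94.5, 76.3 and 85.1 and 81.3, 75.3 and 79.7 FPKM in co-culture. Library 1 was the highest of the controls at both times, and the groups overlapped, at log2 fold changes of 0.31 (SE 0.20) and 0.23 (SE 0.15). Within the inverse model it had 80.9, 72.1 and 65.2 FPKM in controls and 73.3, 90.2 and 82.4 FPKM in co-culture at 24 h, and 75.5, 71.9 and 67.2 and 76.1, 87.4 and 66.0 FPKM at 72 h. These overlapped too, at 0.17 (SE 0.12, 95% CI -0.10 to 0.45, adjusted p = 0.58) and 0.09 (SE 0.12, 95% CI -0.20 to 0.37, adjusted p = 0.65).

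Manf (ENSMUSG00000032575, chr9:106838312-106891979, minus strand) encodes a small ER protein, partly secreted, that binds BiP. It was at 239.8, 116 and 119.9 FPKM in standard controls at 24 h, where library 1 was about as high as the other 2 together, and at 183, 162 and 172 FPKM in co-culture. Standard values at 72 h were 171, 142 and 115 FPKM in controls and 162, 159 and 173 FPKM in co-culture. The interval of the log2 fold change at 24 h, -0.51 to 0.91, was accordingly wide. Inverse controls had 159.9, 172 and 153 FPKM at 24 h and 139, 113 and 123 FPKM at 72 h, and co-cultures 201, 204 and 146 and 157, 161 and 83.7 FPKM. Co-culture and control overlapped at both times, and without co-culture library 3 the 72 h value moved from 0.04 to 0.35 (adjusted p = 0.078).

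Hsp90b1 (ENSMUSG00000020048, chr10:86690209-86705509, minus strand), the ER form of the heat shock protein HSP90, was at 529, 305 and 371 FPKM in standard controls and 522, 387 and 464 FPKM in co-culture at 24 h. Corresponding values at 72 h were 469, 334 and 304 and 486, 445 and 444 FPKM. Control library 1 was high at both times, so that the groups overlapped although 3 of 3 pairs were higher in co-culture at 72 h, at 0.34 (SE 0.19, 95% CI -0.12 to 0.80, adjusted p = 0.80). The inverse model had 435, 468 and 356 and 507, 527 and 449 FPKM at 24 h, and 371, 337 and 366 and 439, 458 and 268 FPKM at 72 h, for controls and co-cultures. At 72 h co-culture libraries 1 and 2 were above and library 3 below all controls, at 0.08 (SE 0.20, 95% CI -0.39 to 0.54, adjusted p = 0.82), or 0.33 (adjusted p = 0.072) without library 3.

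Calr (ENSMUSG00000003814, chr8:84841850-84846934, minus strand) encodes calreticulin, the lectin that retains glycoproteins until they are folded and that binds calcium. It was at 985, 488 and 676 FPKM in standard controls and 880.3, 623 and 737 FPKM in co-culture at 24 h, and at 812, 734 and 638 and 851, 659 and 756 FPKM at 72 h. The spread within each group was larger than the difference, with log2 fold changes of 0.11 (SE 0.29) and 0.05 (SE 0.18). Within the inverse model at 24 h it was at 863, 841 and 717 FPKM in controls and 978, 1029.8 and 890.0 FPKM in co-culture. Here the groups did not overlap, as for Xbp1, and these 2 members stood against 7.38% of genes tested that were higher without overlap. The log2 fold change of 0.26 (SE 0.11, 95% CI 0.01 to 0.51, adjusted p = 0.30) did not pass. At 72 h the values were 746, 740.2 and 647 FPKM in controls and 739, 783 and 315 FPKM in co-culture. Library 3 was at less than any other library of the 24, and the log2 fold change of -0.32 (SE 0.32, 95% CI -1.08 to 0.43, adjusted p = 0.53) changed to 0.10 (adjusted p = 0.59) without it.

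Pdia4 (ENSMUSG00000025823, chr6:47796141-47813430, minus strand), a protein disulfide isomerase, had 205, 151 and 174 FPKM in standard controls and 194, 178 and 193 FPKM in co-culture at 24 h, and 187, 166 and 137 and 193, 167 and 173 FPKM at 72 h. Its inverse libraries had 197, 199 and 159.9 and 226, 223 and 188 FPKM at 24 h, and 167, 171 and 143 and 167, 194 and 105 FPKM at 72 h. The groups overlapped in all 4 comparisons, with log2 fold changes between -0.09 (inverse model at 72 h, where scaling by median gene ratios gave 0.08) and 0.20 (inverse model at 24 h).

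Creld2 (ENSMUSG00000023272, chr15:88819646-88826683, plus strand), an ER-resident and secreted protein with EGF-like domains, had 28.8, 22.6 and 21.1 FPKM in standard controls and 29.6, 27.4 and 26.1 FPKM in co-culture at 24 h, and 28.0, 31.5 and 25.2 and 27.2, 28.7 and 24.8 FPKM at 72 h. It was the 1 member below 0 in the standard model at 72 h, at -0.06 (SE 0.13, 95% CI -0.38 to 0.25, adjusted p = 0.95) and lower in co-culture in all 3 pairs, though at 0.03 with scaling by median gene ratios. The inverse model gave 26.9, 29.8 and 27.0 and 35.9, 39.0 and 29.5 FPKM at 24 h, and 30.2, 23.4 and 27.9 and 25.2, 31.9 and 17.1 FPKM at 72 h. At 24 h co-culture was higher on average and overlapped with controls in 1 library, at 0.31 (SE 0.13, 95% CI 0.01 to 0.60, adjusted p = 0.31). The interval excluded 0 while the adjusted p did not pass.

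The low values of inverse co-culture library 3 at 72 h ran through the group. On the log2(FPKM + 0.5) scale its 10 genes lay 0.49 below the mean of their group on average, 9 of 10 below and from -0.85 to 0.01, whereas libraries 1 and 2 lay 0.18 and 0.31 above it. In the other 21 libraries this mean deviation was between -0.18 and 0.25, the highest being standard control library 1 at 24 h. The median deviation over all genes in library 3 was 0.000455. Without library 3, 9 of the 10 log2 fold changes in the inverse model at 72 h were above 0, with a median of 0.18 in place of -0.05, no member was a DEG, and 1637 DEG stood beside 1678 with it. Members higher in all co-culture libraries numbered 0 there, against 9.53% of genes tested.

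**Figure D3:**
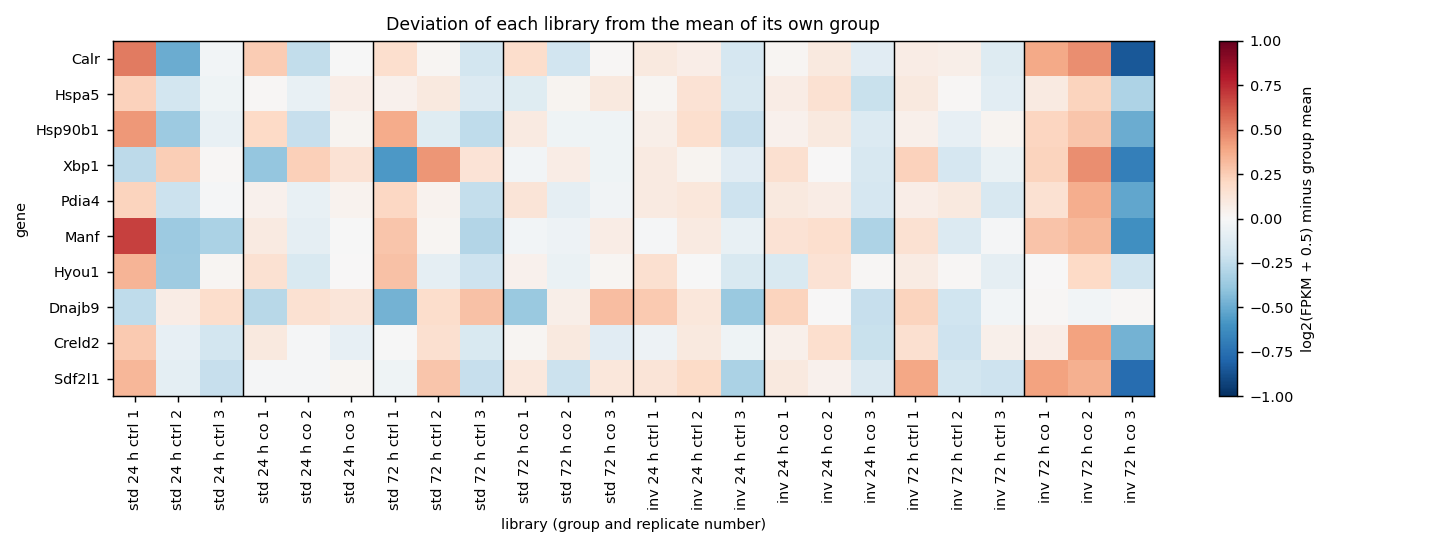
Deviation of each library (columns, named by model, time, group and number) from the mean of its own group in log2(FPKM + 0.5), for the 10 genes (rows), from blue (below) to red (above). Inverse co-culture library 3 at 72 h is blue for 9 genes, down to -0.85, and Dnajb9 is the row that does not follow.

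Genes listed as targets of the PERK branch ran the other way in library 3, and the activity of PERK was not measured. The 4 named here were chosen after their values were seen. Chac1, which degrades glutathione, was at 7.39, 5.44 and 32.7 FPKM in inverse co-cultures 1, 2 and 3 at 72 h and at 4.15, 7.36 and 2.69 FPKM in controls. Trib3, a pseudokinase induced by ATF4, was at 46.3, 36.7 and 159 FPKM, beside 29.9, 44.6 and 24.3 FPKM. The amino acid synthesis genes Asns and Psat1 were at 278 and 251 FPKM in library 3, against 107 to 118 and 79.2 to 111 FPKM in libraries 1 and 2. On average the 10 genes of this branch lay 0.73 above their group mean in library 3, 9 of 10 above it, in the log2(FPKM + 0.5) scale used for the 10 chaperone and UPR genes. In that library BiP co-chaperones and exchange factors lay 0.27 below their group mean, with 0 of 8 genes above it, and the oligosaccharyltransferase 0.24 below. Mitochondrial chaperones lay 0.25 above, and UPR sensors and activators 0.22 above with 10 of 11 genes above their group mean.

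**Figure D4:**
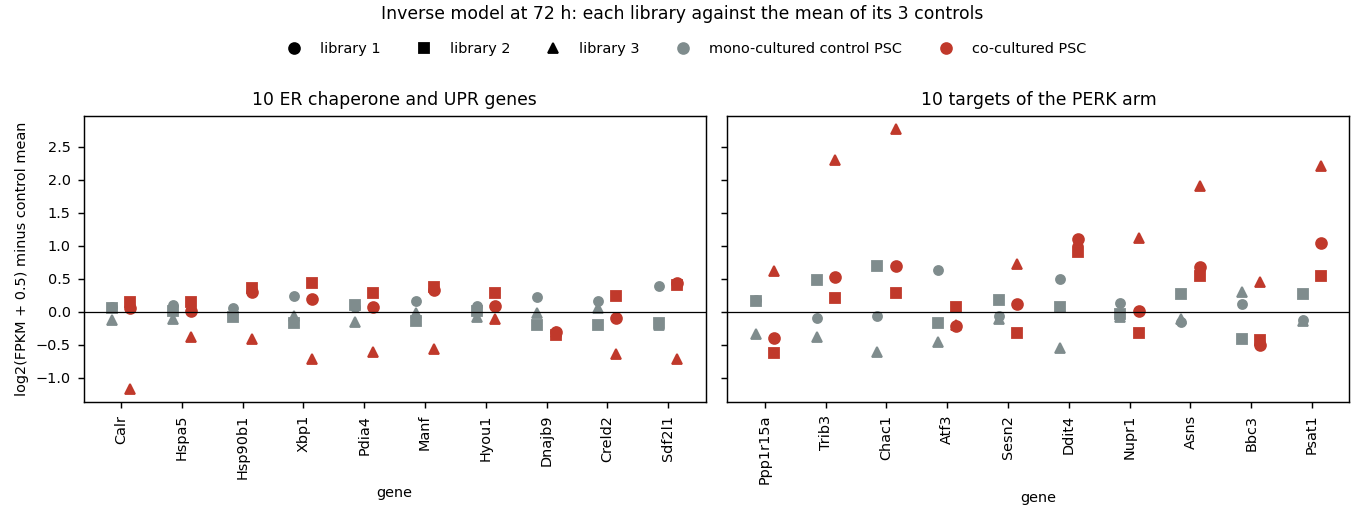
Values of each inverse library at 72 h minus the mean of its 3 controls in log2(FPKM + 0.5) (vertical axis), for the 10 chaperone and UPR genes (left) and 10 targets of the PERK branch (right), with controls in grey, co-cultures in red and marker shapes for the library number. Co-culture library 3 (triangles) is the lowest of the 6 libraries for 9 genes on the left, and it is the highest library for Chac1 (32.7 FPKM), Trib3 (159 FPKM), Asns and Psat1 on the right.

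Markers of other cells moved in the same comparison. Adipocyte markers summed to 454 to 926 FPKM in inverse controls at 72 h and to 34.4 to 127 FPKM in co-culture, 6 of the 7 tested being lower DEG, and library 3 was the lowest. Macrophage markers summed to 131 to 261 and 59.3 to 87.1 FPKM, with 5 of 7 tested lower. Epithelial markers summed to 10.7 FPKM in library 3 and to 7.34 and 7.43 FPKM in libraries 1 and 2, with Epcam at or near 0 in all libraries. Of the 2 epithelial markers tested, Krt19 was a higher DEG, from a mean of 0.0974 to 2.04 FPKM (log2 fold change 2.03, adjusted p = 0.019), and Sox9 did not pass. Ighm of the B and plasma cell list was a lower DEG, from 12.5 to 0.428 FPKM. Their part in the differences of the 10 genes was not tested.

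None of the 10 genes passed the test of a difference between the models in the response to co-culture. The difference of the log2 fold changes, inverse minus standard, was tested over all 24 libraries, and 0% of 14452 genes passed at either time, with 182 and 501 genes at an unadjusted p below 0.05. For the members it ran from -0.14 to 0.19 at 24 h, with 95% intervals that reached from -0.77 to 0.96. At 72 h it was below 0 for all 10, from -0.65 (Xbp1) to -0.10 (Creld2), with a median of -0.25, and intervals reached from -1.41 to 0.55. Without inverse co-culture library 3 the median at 72 h was 0.02 and 5 of 10 were above 0.

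Changes of the response over time were tested as 72 h minus 24 h within each model, over 12 libraries. In the standard model the differences ran from -0.27 to 0.18, and 0% of 13694 genes passed (141 with an unadjusted p below 0.05). With the number as a block 0 genes passed too, and 379 had an unadjusted p below 0.05. Within the inverse model they were below 0 for all 10, from -0.72 (Xbp1) to -0.08 (Hyou1), with a median of -0.30 beside -0.09 over all genes, and 0% of 13722 genes passed (1471 with an unadjusted p below 0.05). The log2 differences for Xbp1 and Dnajb9 were -0.72 (SE 0.32, 95% CI -1.43 to -0.02, adjusted p = 0.45) and -0.58 (SE 0.24, 95% CI -1.10 to -0.06, adjusted p = 0.42). Without inverse co-culture library 3 at 72 h they were -0.38 and -0.59, and the median of the 10 was -0.09, so Dnajb9 kept its value and Xbp1 did not.

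Control PSC changed with time on the insert. Within the inverse model 19.2% of 13092 genes were DEG between 72 h and 24 h, 10.2% higher and 9.05% lower, and of the 10 genes Manf fell, from 162 ± 9.64 to 125 ± 12.9 FPKM (SD, n = 3), at -0.37 (SE 0.10, 95% CI -0.60 to -0.15, adjusted p = 0.033), and scaling by median gene ratios gave 1144 higher and 1595 lower DEG in place of 1331 and 1185. Xbp1 and Dnajb9 had higher values without overlap, as did 22.8% of genes tested, and Manf had lower values without overlap, as did 16.9%. The log2 fold changes of Xbp1 and Dnajb9 were 0.36 (SE 0.12, 95% CI 0.10 to 0.63, adjusted p = 0.061) and 0.50 (SE 0.18, 95% CI 0.10 to 0.90, adjusted p = 0.077), so neither passed, and the other 7 lay between -0.22 and -0.02. The co-culture comparison at 72 h therefore set these genes against controls whose means were 222 FPKM for Xbp1 and 37.1 FPKM for Dnajb9, compared with 171 and 26.3 FPKM at 24 h. In the standard model the fit without the block passed 0% of 12963 genes (127 with an unadjusted p below 0.05). The members lay between -0.11 and 0.23 there. With the number as a block 0 genes passed as well, but 1155 had an unadjusted p below 0.05. These controls can therefore not be called unchanged over time. The calls of limma's voom on recovered fragments in the inverse controls were Manf, Xbp1 and Dnajb9, whereas the call for Manf was absent from a fit of all 24 libraries (adjusted p = 0.44). Without 72 h control library 2 Manf did not pass (-0.30, adjusted p = 0.067) and Xbp1 did (0.45, adjusted p = 0.031). Markers of other cells were higher at 72 h in these controls. Adipocyte markers summed to 199 to 291 FPKM at 24 h and 454 to 926 FPKM at 72 h, 5 of 7 tested being higher DEG, and macrophage markers to 76.5 to 84.2 and 131 to 261 FPKM, with 6 of 7 higher. Their part in the changes of the 10 genes was not tested.

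The 10 genes did not vary as 1 block. Across the 24 libraries, which share their groups and the low library, Pearson's r of log2(FPKM + 0.5) averaged 0.51 to 0.70 between a member and the other 9 for 8 genes, 0.39 for Xbp1 and 0.03 for Dnajb9. The closest pairs were Hsp90b1 with Manf and Pdia4 with Calr, both at 0.91. Dnajb9 was closest to Xbp1 (0.61) and ran from -0.18 to 0.24 with the other 8. Among 9516 other genes with a mean FPKM above 5, those most like the mean z-score of the 10 were Pdia6 (r = 0.95), Canx (0.90), Pdia3 (0.90), Rpn1 (0.89), Cope (0.86), P4hb (0.85), Selenos (0.82), Serp1 (0.82), Srpr (0.82) and Dnajb11 (0.82). Without inverse co-culture library 3 at 72 h these values were 0.69 (Dnajb11) to 0.92 (Pdia6).

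Around the 10 genes, 12 hand-made lists with 159 other genes cover the sensors, the other branches and the secretory pathway. The lists were written with earlier results of these data known, so their shares describe them and are no test of enrichment. In the fits without the block, none of these genes was a DEG in the standard model or in the inverse model at 24 h. In the inverse model at 72 h 11 were, or 6.92% of the 159 against 12.8% of all genes. By direction 9 were higher (5.66%) and 2 lower (1.26%), where of all 13066 genes tested 427 were higher and 1251 lower. Of 11 sensors and activators none passed there, and Creb3l1 and Atf4 had the largest values, log2 fold changes of 0.52 (adjusted p = 0.062) and 0.46 (adjusted p = 0.10). Of 10 targets of the PERK branch Ddit4, an inhibitor of mTORC1, rose from 58.6 ± 20.6 to 115 ± 8.58 FPKM (SD, n = 3, log2 fold change 1.02, SE 0.24, adjusted p = 0.032). The median of that list was 0.64, yet 0.14 without co-culture library 3, where Asns and Psat1 were the 2 DEG of the list. None of 8 BiP co-chaperones and exchange factors passed, Cdnf (-0.35, adjusted p = 0.53) and Sil1 (0.20, adjusted p = 0.24) having the largest values.

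Among 16 disulfide isomerases and oxidases Pdia5 rose from 18.7 ± 2.26 to 31.3 ± 4.13 FPKM (log2 fold change 0.73, adjusted p = 0.019), and among 8 genes of the calnexin and lectin cycle Lman1, a cargo receptor for glycoproteins, rose from 93.9 ± 4.74 to 124 ± 11.6 FPKM (0.39, adjusted p = 0.047). Of 19 genes of ER-associated degradation Derl3 fell, from 2.54 ± 1.10 to 0.529 ± 0.0722 FPKM (-1.51, adjusted p = 0.026), at a low level. None of 22 genes of translocation and signal cleavage passed, with Srp54a (-0.57, adjusted p = 0.30) and Srp14 (-0.27, adjusted p = 0.28) at the largest values, although the median of the list was 0.08 and Ssr1 and Ssr4, of the translocon-associated complex, were higher DEG without co-culture library 3. Krtcap2, 1 of 11 genes of the oligosaccharyltransferase, which adds N-glycans, rose from 70.9 ± 4.42 to 108 ± 12.7 FPKM (0.60, adjusted p = 0.017). Kdelr3, a receptor that returns chaperones from the Golgi and 1 of 17 transport genes, rose from 49.4 ± 2.76 to 70.3 ± 5.78 FPKM (0.50, adjusted p = 0.021), and without co-culture library 3 Kdelr2 was a DEG as well.

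Of 13066 genes tested in the inverse model at 72 h 427 were higher DEG, or 752 of 13035 with scaling by median gene ratios. Collagen folding held the most calls of the lists there, with 4 of 14 genes higher, a description of a list written with earlier results known. These were the prolyl 4-hydroxylase subunits P4ha1, from 100.3 ± 4.06 to 213 ± 19.9 FPKM (log2 fold change 1.08, adjusted p = 0.0036), P4ha2 (0.70, adjusted p = 0.021) and P4ha3 (0.55, adjusted p = 0.039), and the lysyl hydroxylase Plod1 (0.74, adjusted p = 0.018). P4ha3 was not among the 4 DEG of this list without co-culture library 3, and the collagen chaperone Serpinh1 was. Outside the ER, Hspb1 of 14 cytosolic heat shock genes fell (-0.59, adjusted p = 0.045), a call that was lost without co-culture library 3, and of 9 mitochondrial chaperones none passed, with Lonp1 at 0.53 (adjusted p = 0.23) and Hspa9 at 0.51 (adjusted p = 0.21). List medians in the inverse model at 24 h were highest for the 10 genes (0.26), the oligosaccharyltransferase (0.23) and collagen folding (0.22), beside -0.06 over all genes, and lowest for PERK targets (-0.10). Without co-culture library 2 the oligosaccharyltransferase (0.21) came before the 10 genes (0.205) and collagen folding (0.199).

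**Figure D5:**
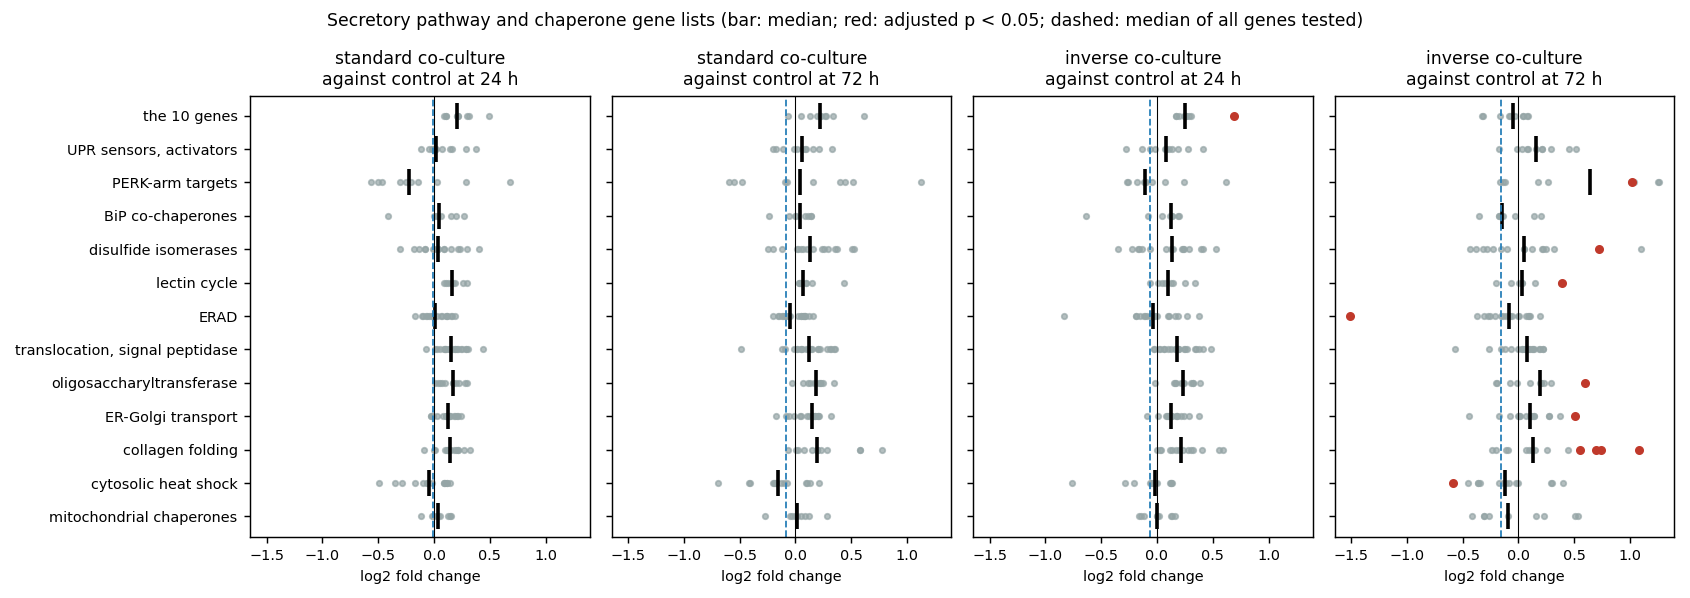
Log2 fold changes of co-culture over control (horizontal axis) of each gene in the 10-gene group and the 12 lists (rows) for the 4 comparisons, with a black bar at the median, red for an adjusted p below 0.05 and a dashed line at the median of all genes tested. Red points other than Xbp1 are found in the inverse model at 72 h, 4 of them in the collagen folding list.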

How the data were processed

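Poly(A) RNA of PSC was sequenced in 24 libraries, in 8 groups of 3 set by the labels. The authors deposited FPKM values of 53801 genes, relative to the counted fragments of each library, after alignment to GRCm38.p6 with HISAT2 2.0.5 and unstranded counting with featureCounts 1.5.0-p3. The annotation release is not given in the sources used here. Symbols and positions were taken from GENCODE M21, which held 53706 of the genes. Fragments were recovered from the FPKM with the mean transcript length of each gene, and 27248 of 28892 genes above 0 gave whole numbers (tolerance 0.01) in all libraries. RNA input (450 ng or 120 ng) was copied from the labels.

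Tests were run with limma 3.58.1 in R 4.3.3, two-sided, with an intensity trend, on log2(FPKM + 0.5) of genes above 1 FPKM in at least 3 of the libraries compared, with Benjamini-Hochberg adjustment over all genes tested and a limit of 0.05. The code was run on simulated data with independent libraries and planted changes larger than those of the 10 genes. That run does not show how the tests perform on smaller changes or on paired libraries. With 3 against 3 libraries an exact permutation test cannot go below 0.1 and was not used. Each co-culture was compared with its control, and the differences of this effect between models (24 libraries) and between time points (12 libraries) and the controls over time were tested too. The paper describes the 3 libraries of a group as biological replicates but does not say whether they came from separate isolations. The p-values therefore measure the spread between these libraries. Deviations of same-numbered libraries from their group means correlated at 0.48 to 0.82 in the standard model, so the numbers pair libraries there. In the inverse model they correlated at -0.17 to 0.15, so no pairing was seen, which does not settle whether same-numbered libraries share an origin. All 10 genes are named. The members and lists were chosen with earlier results of these data known. Of the list genes, up to 4 with the lowest adjusted p in the inverse model are named, otherwise the 2 with the largest change. Alternatives were pseudocounts of 1 and 0.1, no filter, a mean FPKM above 5, median-ratio scaling, no trend, voom on recovered fragments, the replicate number as a block, other libraries in the fit and each library left out. List counts without 1 library were added after the data were seen. Promoter windows came from RefSeq. Python 3.11.15 with pandas 2.3.3, scipy 1.17.1 and matplotlib 3.10.9 made the tables and plots.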

Additional observations from a re-analysis of the deposited data

How the results depend on the processing

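Of 174 counts of members called under alternatives, 156 stayed within 1.5 times, most of them counts of 0 that stayed 0. A swap of 1 called member for another left the count the same, and the counts of 1 often changed, as given below. With the replicate number as a block, 1 member (Xbp1) was called in the standard model at 24 h in place of 0. In the inverse model at 24 h the 1 call became 0 with no filter, no trend, the block or all 24 libraries in one fit, and was 0 to 1 when single libraries were left out (0 without any single control or without co-culture library 2). In inverse controls over time the 1 call became 3 with voom and 0 with no filter, no trend, the block or all 24 libraries, and was 0 to 1 with 1 library left out (0 without any 24 h control or without 72 h control 3, and Xbp1 in place of Manf without 72 h control 2). The block changed no other call of a member. Counts over all genes moved too. The block gave 157 DEG in place of 0 in the standard model at 24 h and 1 in place of 0 at 72 h. The inverse count at 24 h, 317, fell to 88 with the block, 50 with no filter and 11 with all 24 libraries. The inverse count at 72 h, 1678, fell to 902, 888 and 897. For the model difference at 72 h the block gave 16 in place of 0. Inverse controls over time had 2516 DEG, 1425 with no filter and 225 with all 24 libraries. With no trend 98 genes passed in the inverse model at 24 h, and with voom 520. With 1 library left out these 2 inverse co-culture counts went down to 67 (24 h, control 3) and 368 (72 h, control 3). A clear correlation by number was seen in the standard model only, where every standard library correlated best with its own number in 9 of 9 pairs tested.

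Median-ratio scaling turned the sign of Creld2 in the standard model at 72 h (0.029), of Hspa5 (0.093), Pdia4 (0.078) and Xbp1 (0.13) in the inverse model at 72 h, and of the time difference of Hyou1 in the inverse model (0.020). Leaving out 1 library turned signs of small log2 fold changes. In the standard model at 24 h the ranges were -0.0038 to 0.22 for Pdia4, -0.023 to 0.26 for Sdf2l1 and -0.14 to 0.37 for Calr, and at 72 h -0.045 to 0.38 for Dnajb9, -0.14 to 0.015 for Creld2 and -0.039 to 0.15 for Calr. In the inverse model at 72 h they were -0.18 to 0.083 for Hspa5, -0.061 to 0.33 for Hsp90b1, -0.27 to 0.17 for Pdia4, -0.16 to 0.42 for Sdf2l1, -0.27 to 0.31 for Xbp1, -0.37 to 0.070 for Creld2, -0.012 to 0.19 for Hyou1, -0.12 to 0.35 for Manf and -0.56 to 0.10 for Calr. The model difference of Creld2 at 72 h was -0.31 to 0.13 and the time difference of Hyou1 -0.18 to 0.017. Without inverse co-culture library 3 at 72 h Hspa5, Pdia4, Xbp1, Creld2 and Calr turned to values above 0, Xbp1 also without control 1, whereas Hsp90b1, Sdf2l1, Hyou1 and Manf turned below 0 without another library. The cause was not tested. With 1 library left out, the 2 that remain are assumed to vary like the other group.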

Other observations

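Inverse control PSC also differed between 24 h and 72 h on the insert in genes of the 12 lists, which were written with earlier results known. Of 159 genes 4 rose (2.52%, beside 10.2% of all genes tested) and 21 fell (13.2%, beside 9.05%), with a median log2 fold change of -0.09 beside 0.04 over all genes. Examples chosen after their values were seen are the collagen chaperone Serpinh1, from 2579 ± 114 to 1796 ± 81.3 FPKM (SD, n = 3, limma, log2 fold change -0.52, adjusted p = 0.0093), the collagen isomerase Fkbp10 (-0.63, adjusted p = 0.0045), Krtcap2 of the oligosaccharyltransferase (-0.71, adjusted p = 0.0025) and Sec61b of the translocon (-0.75, adjusted p = 0.013). The UPR sensor Ern1, which encodes IRE1, rose from 9.72 ± 0.703 to 16.3 ± 0.851 FPKM (0.72, adjusted p = 0.0046). The 72 h controls also serve the co-culture comparison at 72 h, in which Krtcap2, Kdelr3, P4ha3 and Pdia5 were higher, so that both comparisons share these libraries. In standard controls 0 of the 159 passed over the same interval by limma without the block, as did 0 of all genes tested (127 with an unadjusted p below 0.05). With the number as a block, 0 of all genes passed and 1155 had an unadjusted p below 0.05.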
